A study of Homo sapiens with 4 samples.

Results

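The spindle assembly checkpoint genes are 10 genes listed by their known function in the checkpoint, and the rule that lists them uses no measured value. The choice was made with earlier results of these data known. They are TTK, BUB1, MAD1L1, ZW10, MAD2L1, BUB1B, BUB3, CDC20, TRIP13 and MAD2L1BP, and all 10 were found among the 28729 genes of the expression table. RNA sequencing was performed on 4 libraries of TU-177, an established human laryngeal squamous cell carcinoma (LSCC) line, to compare cells with and without knockdown of SKA3. The 2 negative control (NC) libraries came from cells that received a lentivirus with a negative control shRNA, and the 2 knockdown (SKA3-KD) libraries from cells that received a lentivirus with an shRNA against SKA3. Both groups were selected with puromycin, so that the lentivirus and the selection were common to all 4 libraries, and the sample labels name no single-cell clone. Levels are FPKM values, counts of fragments already divided by gene length and library size.

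The spindle assembly checkpoint holds a dividing cell in metaphase until every chromosome is attached to the spindle. At a kinetochore without microtubules, the kinase TTK starts a scaffold on which BUB1, BUB3 and the MAD1L1-MAD2L1 complex gather, and MAD2L1 is converted there into a form that binds CDC20. CDC20, together with MAD2L1, the BUB1B protein (BubR1) and BUB3, then forms the mitotic checkpoint complex, which inhibits the anaphase-promoting complex (APC/C). TRIP13 and its adaptor MAD2L1BP (p31comet) take MAD2L1 out of that complex so that anaphase can follow. SKA3 belongs to the SKA complex, which couples kinetochores to microtubules, and the checkpoint reads the state of the same attachments.

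Promoters of checkpoint genes are known for the cell cycle homology region (CHR element), the site of the MuvB core that is shared by the DREAM complex and by the complexes with MYBL2 and FOXM1. Each sequence was searched on both strands for the CHR element (TTTGAA or TTCGAA), for the box bound by NF-Y (CCAAT) and for an E2F core (TTTGGCG or TTTCGCG). The promoters of the 4 checkpoint genes that passed the test for a change are shown because all 4 hold a CHR match. They were taken from RefSeq (GRCh38.p14) and are printed 5′ to 3′ on the strand of the gene, from 250 bases before the annotated start to 30 bases after it. Capitals mark matches to the CHR element and the NF-Y box, read on either strand.
CDC20 (chr1:43358731-43359010, plus strand): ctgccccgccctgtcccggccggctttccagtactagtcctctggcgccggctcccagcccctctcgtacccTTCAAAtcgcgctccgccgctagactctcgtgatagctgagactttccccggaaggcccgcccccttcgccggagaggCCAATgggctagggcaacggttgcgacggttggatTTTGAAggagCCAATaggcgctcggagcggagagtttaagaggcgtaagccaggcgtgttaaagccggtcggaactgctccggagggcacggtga
TRIP13 (chr5:892634-892913, plus strand): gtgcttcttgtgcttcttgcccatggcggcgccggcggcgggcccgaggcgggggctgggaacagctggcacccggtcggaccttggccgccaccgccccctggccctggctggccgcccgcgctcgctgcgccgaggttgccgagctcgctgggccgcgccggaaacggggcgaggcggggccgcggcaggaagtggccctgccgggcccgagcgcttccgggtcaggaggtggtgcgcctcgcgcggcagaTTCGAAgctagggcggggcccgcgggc
BUB1 (chr2:110678034-110678313, minus strand): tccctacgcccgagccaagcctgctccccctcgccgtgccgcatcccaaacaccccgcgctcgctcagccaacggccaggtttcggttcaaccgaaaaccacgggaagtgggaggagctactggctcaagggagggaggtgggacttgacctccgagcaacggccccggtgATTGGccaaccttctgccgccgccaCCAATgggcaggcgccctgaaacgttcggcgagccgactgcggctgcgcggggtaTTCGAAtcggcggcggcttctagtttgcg
BUB1B (chr15:40160819-40161098, plus strand): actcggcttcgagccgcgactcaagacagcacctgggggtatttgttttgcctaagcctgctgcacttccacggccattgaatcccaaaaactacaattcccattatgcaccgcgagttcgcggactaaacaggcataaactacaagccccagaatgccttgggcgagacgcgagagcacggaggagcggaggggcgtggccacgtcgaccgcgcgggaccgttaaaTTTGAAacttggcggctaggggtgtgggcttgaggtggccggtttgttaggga

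A promoter entry was found for 8 of the 10 genes, and the search covered 250 bases before to 50 bases after the start. MAD2L1BP had entries for both of its annotated starts. A CHR match was present in 7 of these 8 genes, all but MAD1L1. An NF-Y box was present in 4 of 8 (CDC20, BUB1, MAD2L1 and ZW10), and an E2F core in 0 of 8. Of all 35116 promoters in the RefSeq table, 16.4% held a CHR match, 34.6% an NF-Y box and 3.19% an E2F core. Among the 8943 tested genes with an entry, these shares were 15.0%, 43.6% and 6.62%. Positions count the annotated start as 1 and give the first base of the match as printed. In CDC20 the CHR matches began at -178 and -65, and 2 NF-Y boxes began at -100 and -55. In BUB1 the CHR match began at 2 and the NF-Y boxes at -79 and -54. The single CHR match began at 4 in TRIP13, at -23 in BUB1B, at 25 in MAD2L1 and at -224 in ZW10, and at -117 before the downstream start of MAD2L1BP. No CHR match overlapped an NF-Y box. The CHR match therefore lay within 25 bases of the start in BUB1, TRIP13, BUB1B and MAD2L1, and farther upstream in CDC20, ZW10 and MAD2L1BP. A CHR match was found in genes that rose (CDC20, TRIP13, BUB1 and BUB1B) and in genes with lower values in SKA3-KD that did not pass the test (ZW10 and MAD2L1BP). Of all tested genes with a CHR match, 8.58% were higher past the threshold, and their median log2 fold change was 0.01. The share was 6.97% with an NF-Y box, 6.08% with an E2F core and 9.76% with both CHR and NF-Y matches. Of all 12645 genes tested, with or without a promoter entry, 6.16% were higher. The difference between these shares was not tested.

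**Figure D1:**
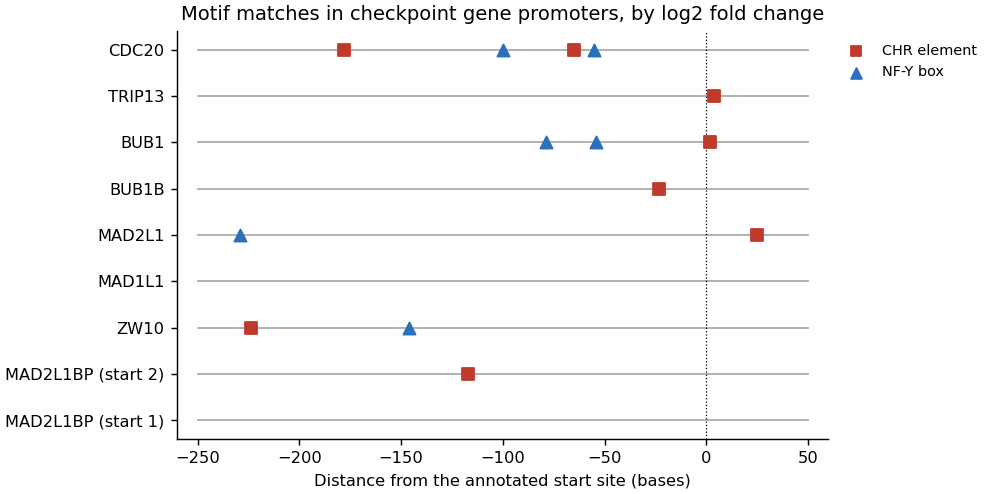
Positions of CHR (squares) and NF-Y (triangles) matches in the promoters of 8 checkpoint genes, ordered from the highest to the lowest log2 fold change. The horizontal axis is the distance from the annotated start in bases; 7 of the 8 genes hold a CHR match and MAD1L1 holds neither motif.

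SKA3 itself read 9.40 and 9.64 FPKM in the NC libraries and 3.77 and 4.12 in the SKA3-KD libraries, so the targeted gene was lower in both knockdown libraries as labelled (log2 fold change -1.09, standard error 0.07, limma adjusted p = 0.00806). Library sizes lay between 9015056 reads (NC 2) and 11966130 reads (NC 1). In the check of the cell type, 5 of 8 squamous epithelial markers (KRT5, KRT14, KRT6A, TP63 and CDH1) were under 1 FPKM in every library, while KRT17, SFN and EPCAM were expressed. KRT17 fell from 45.6 and 49.1 to 29.4 and 35.7 FPKM (log2 fold change -0.53, limma adjusted p = 0.0396). The 5 markers under 1 FPKM were therefore absent or nearly so, and the cells are called TU-177 here. The summed level of 6 fibroblast markers was 15.4 and 15.8 FPKM in NC and 8.86 and 9.56 in SKA3-KD. Most of that difference was in DCN (8.40 and 8.36 against 2.48 and 2.35 FPKM), whereas PDGFRB was higher in both SKA3-KD libraries (2.88 and 2.46 against 3.19 and 4.13 FPKM; limma adjusted p = 0.165, limma voom adjusted p = 0.0177). Leukocyte markers summed to between 0.573 and 1.01 FPKM and endothelial markers to between 0.0633 and 0.0968 FPKM over the 4 libraries. Whether KRT17 or the fibroblast markers bear on the checkpoint genes was not tested.

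Changes were tested with limma on log2(FPKM + 1) over 12645 genes whose mean FPKM was 1 or more, with Benjamini-Hochberg adjusted p under 0.05 as the threshold. All 10 checkpoint genes passed this filter. Of the 10, CDC20, TRIP13, BUB1 and BUB1B rose in SKA3-KD, by between 22.7% and 46.1%, and none fell. Over all genes tested, 6.16% were higher past the threshold and 6.11% lower, 12.3% in all. At an unadjusted limma p under 0.05, 5 of the 10 checkpoint genes were higher and 2 lower, beside 2046 and 1912 of the 12645 genes. In limma voom on the read counts recovered from the FPKM values, 5 of 10 were higher (the same 4 and MAD2L1) and 1 was lower (BUB3), against backgrounds of 13.9% and 12.2%. The values of the groups did not overlap in 9 of 10 genes, 6 higher and 3 lower, while 32.3% of all genes were higher and 29.2% lower without overlap, 61.6% in all. The median log2 fold change of the 10 genes was 0.18, beside 0.01 over all genes tested. These are levels in bulk RNA, so a different share of mitotic cells and a different amount of RNA per cell cannot be told apart. The labels do not say whether the 2 libraries of a group came from separate cultures, so the p-values measure the spread between these libraries.

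**Figure D2:**
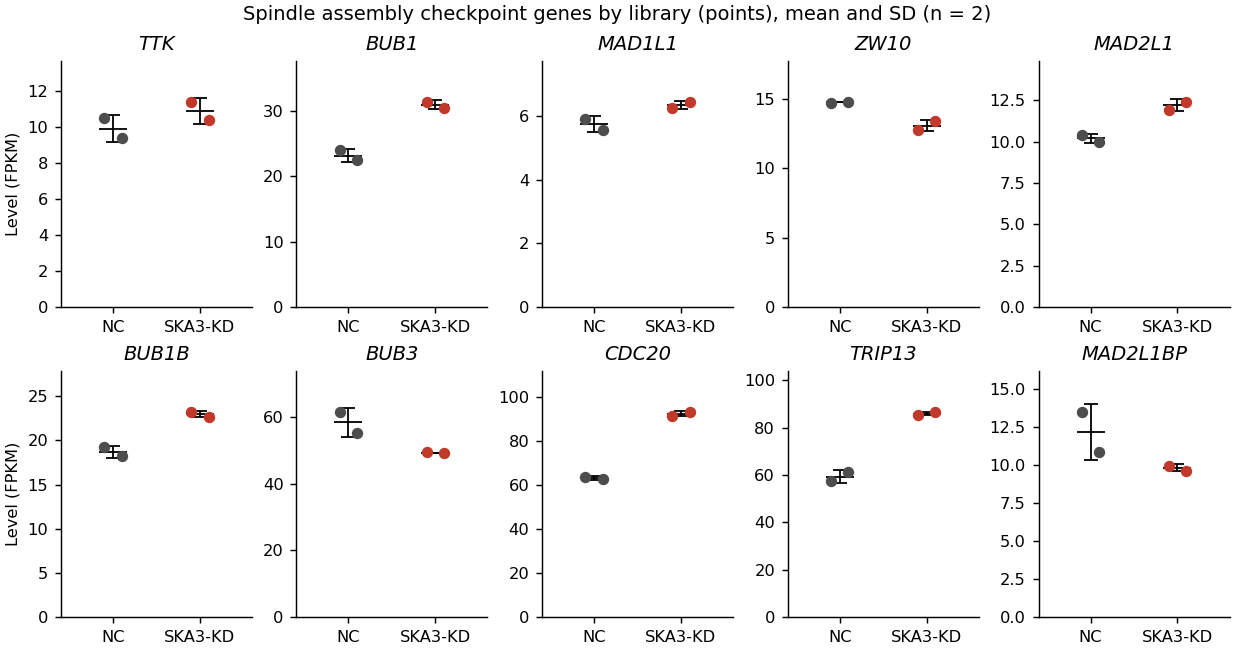
Level of each checkpoint gene in FPKM (vertical axes, from 0) in the 2 NC (grey) and 2 SKA3-KD (red) libraries; points are libraries and bars are the mean and SD (n = 2). CDC20, TRIP13, BUB1 and BUB1B sit higher in both SKA3-KD libraries, BUB3, ZW10 and MAD2L1BP sit lower, and the TTK values overlap.

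Among the kinases, BUB1 rose and TTK did not pass the test. BUB1 phosphorylates histone H2A at centromeres and holds BUB1B at kinetochores. It lies on the minus strand of chromosome 2 (chr2:110637698-110678114, GRCh38). BUB1 read 24.0 and 22.5 FPKM in NC and 31.4 and 30.5 in SKA3-KD, from 1731, 1224, 1930 and 2170 reads. Both SKA3-KD libraries lay above both NC libraries, and the mean went from 23.2 ± 1.04 to 31.0 ± 0.66 FPKM (SD, n = 2). Its log2 fold change was 0.40 (standard error 0.06, 95% interval 0.24 to 0.56, limma adjusted p = 0.0257). TTK (MPS1), the kinase at the head of the checkpoint, lies on the plus strand of chromosome 6 (chr6:80003887-80042527). TTK read 10.5 and 9.38 FPKM in NC and 11.4 and 10.4 in SKA3-KD. The lower SKA3-KD value fell between the NC values, so the groups overlapped, in TTK alone of the 10 genes. The log2 fold change of TTK was 0.13 (95% interval -0.09 to 0.34, limma adjusted p = 0.373), an interval that leaves room for a rise of the size fitted for BUB1B. It was 0.20 without NC 1, 0.05 without NC 2 and 0.07 without SKA3-KD 1.

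MAD1L1 and ZW10 act at the kinetochore upstream of the inhibitor, and neither passed the test. MAD1L1 is the partner that carries MAD2L1 to unattached kinetochores, and its gene covers chr7:1815793-2233243 on the minus strand. It had the lowest level of the 10 genes, 5.92 and 5.57 FPKM in NC and 6.26 and 6.44 in SKA3-KD. The SKA3-KD values lay above the NC values by a small margin, with a log2 fold change of 0.12 (95% interval -0.06 to 0.31, limma adjusted p = 0.307). ZW10, on the minus strand at chr11:113733187-113773811, is a subunit of the RZZ complex that brings dynein and MAD1L1 to kinetochores. ZW10 read 14.7 and 14.8 FPKM in NC and 12.8 and 13.4 in SKA3-KD. Both SKA3-KD libraries were lower, and the log2 fold change of -0.16 (standard error 0.06) did not pass the threshold (limma adjusted p = 0.156).

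Within the mitotic checkpoint complex the 4 components had unlike values. CDC20, the target of the complex and activator of the APC/C, and BUB1B rose. MAD2L1 was higher in both SKA3-KD libraries without passing the test, and BUB3 was lower without passing it. CDC20 had the highest level of the 10 genes in both groups and lies on the plus strand of chromosome 1 (chr1:43358955-43363203). It read 63.7 and 62.5 FPKM in NC and 91.4 and 93.0 in SKA3-KD, from 1554, 1149, 1896 and 2236 reads. The replicates of CDC20 were close together beside the distance between the groups, with means of 63.1 ± 0.837 and 92.2 ± 1.15 FPKM (SD, n = 2). Its log2 fold change of 0.54 (standard error 0.05, 95% interval 0.41 to 0.67, limma adjusted p = 0.0114) was the largest of the 10. A processed pseudogene, CDC20P1, read 0.223 and 0.296 FPKM in NC and 0.852 and 0.848 in SKA3-KD, and reads shared between the copies could have been assigned to either.

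BUB1B encodes BubR1, the component that blocks the substrate sites of the APC/C, and lies at chr15:40161023-40221136 on the plus strand. It read 19.2 and 18.2 FPKM in NC and 23.2 and 22.7 in SKA3-KD, from 1028, 736, 1058 and 1199 reads. Both SKA3-KD libraries were above both NC libraries, by a smaller margin than for CDC20. The log2 fold change was 0.28 (standard error 0.06, 95% interval 0.12 to 0.44), and the limma adjusted p of 0.0484 was close to the threshold. This call was lost in 4 of 9 alternative fits on all libraries, with adjusted p from 0.00803 to 0.0919. BUB1B shares 457 exon bases on the same strand with the readthrough gene BUB1B-PAK6, which was not analysed here.

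MAD2L1 (MAD2), the subunit that changes shape to hold CDC20, lies at chr4:120055608-120067074 on the minus strand. MAD2L1 read 10.4 and 10.0 FPKM in NC and 11.9 and 12.4 in SKA3-KD. The groups were apart, with a log2 fold change of 0.23 (95% interval 0.06 to 0.40) that missed the threshold in the FPKM fit (limma adjusted p = 0.0829). The same gene was past the threshold in limma voom (log2 fold change 0.25, adjusted p = 0.0337).

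BUB3, which binds phosphorylated kinetochore repeats and carries BUB1 and BUB1B with it, lies at chr10:123154277-123170467 on the plus strand. BUB3 read 61.5 and 55.2 FPKM in NC and 49.4 and 49.3 in SKA3-KD. Both SKA3-KD values lay below both NC values, and the NC libraries were 10.8% of their mean apart. The log2 fold change was -0.24 (95% interval -0.42 to -0.05, limma adjusted p = 0.0951). In limma voom BUB3 was lower past the threshold (log2 fold change -0.24, adjusted p = 0.0177).

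Of the 2 genes that take the complex apart, TRIP13 rose and MAD2L1BP did not pass the test. TRIP13 is an ATPase that unfolds part of MAD2L1, and its gene covers chr5:892643-919357 on the plus strand. TRIP13 read 57.5 and 61.1 FPKM in NC and 85.4 and 86.5 in SKA3-KD, from 2448, 1962, 3094 and 3631 reads. Both SKA3-KD libraries stood well above both NC libraries, with means of 59.3 ± 2.59 and 85.9 ± 0.772 FPKM (SD, n = 2). The log2 fold change was 0.53 (standard error 0.06, 95% interval 0.38 to 0.68, limma adjusted p = 0.0141). TRIP13 shares 182 exon bases with BRD9 on the opposite strand, and whether the counting used strand is not given in the sources used here. BRD9 read 11.3, 11.4, 11.7 and 12.9 FPKM over the libraries in the same order.

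MAD2L1BP, the adaptor through which TRIP13 reaches MAD2L1, lies at chr6:43629540-43640952 on the plus strand. It read 13.5 and 10.9 FPKM in NC and 9.98 and 9.65 in SKA3-KD, from 303, 184, 191 and 214 reads. The SKA3-KD values were below both NC values, but the NC libraries differed from each other by 21.5% of their mean, the widest gap between replicates among the 10 genes. The log2 fold change of -0.28 (95% interval -0.56 to 0.01) did not pass the threshold (limma adjusted p = 0.165). Without NC 1 it was -0.13, and without NC 2 it was -0.42, so its size depended on which NC library was kept.

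**Figure D3:**
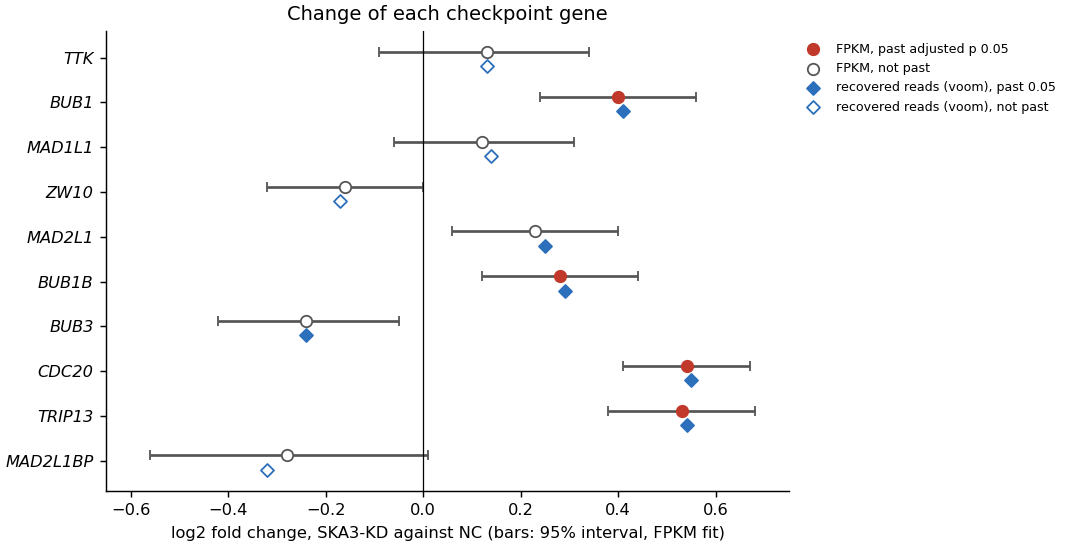
Log2 fold change of each checkpoint gene, SKA3-KD against NC, in order of role from kinetochore kinase to disassembly factor; circles are the FPKM fit with 95% intervals and diamonds are limma voom on recovered reads, filled where the adjusted p was under 0.05. CDC20 and TRIP13 lie farthest to the right, and MAD2L1 and BUB3 are filled in limma voom alone.

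The rises of CDC20, TRIP13 and BUB1 differed in how firmly they stood. CDC20 kept its call in 9 of 9 alternative fits on all libraries, TRIP13 in 8 and BUB1 in 7. With any single library left out, none of the 10 genes passed the threshold. The log2 fold changes under those exclusions were 0.53 to 0.55 for CDC20, 0.48 to 0.57 for TRIP13, 0.36 to 0.44 for BUB1 and 0.25 to 0.32 for BUB1B, so the sizes changed little and the adjusted p rose to between 0.0612 and 0.207.

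FPKM is per length of exon, so the levels of the genes can be ordered. The order depends on the exon length used for each gene, which may differ from that of the transcript expressed. In NC, CDC20 (63.1 FPKM on average), TRIP13 (59.3) and BUB3 (58.4) formed the top of the order, and TRIP13 and BUB3 overlapped between libraries. BUB1 (23.2), BUB1B (18.7), ZW10 (14.8) and MAD2L1BP (12.2) followed, each apart from the next. MAD2L1 (10.2) and TTK (9.92) overlapped, and MAD1L1 (5.74) was lowest. In SKA3-KD every neighbour in the order was apart from the next by the values of its libraries. CDC20 and TRIP13 stood at 92.2 and 85.9 FPKM, clear of BUB3 at 49.3. MAD2L1BP, at 9.82 FPKM, stood below MAD2L1 (12.2) and TTK (10.9), and none of these genes passed the test for a change.

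A ratio of 2 genes within a library does not depend on library size, and 6 such ratios were compared. The exact two-sided permutation p was 0.333 for each of the 6, the smallest that 2 libraries against 2 can give. Of single genes tested, 61.6% had groups that did not overlap, and the share among other pairs of genes was not computed. BUB3 to BUB1B, which form a pair at kinetochores, stood at 3.21 and 3.03 in NC and at 2.13 and 2.17 in SKA3-KD. This fall of 0.54 on the log2 scale was wide beside the spread between replicates, a pooled SD of 0.04. MAD2L1BP to MAD2L1 was 1.3 and 1.08 in NC and 0.839 and 0.777 in SKA3-KD. The difference was -0.55 on the log2 scale with a pooled SD of 0.14. By FPKM, MAD2L1BP stood above MAD2L1 in both NC libraries and below it in both SKA3-KD libraries. Which gene stands higher depends on the exon lengths used, 1880 bases for MAD2L1BP and 5748 for MAD2L1. In recovered reads MAD2L1 was higher in every library (715, 519, 696 and 842 against 303, 184, 191 and 214).

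Against its target CDC20, both checkpoint inhibitors that were compared took a smaller value in SKA3-KD. The log2 fold change of CDC20 was above that of 96.7% of the genes tested, so most genes would fall against it. These ratios restate the changes of the single genes and are no separate result. MAD2L1 to CDC20 was 0.163 and 0.160 in NC and 0.130 and 0.134 in SKA3-KD, a difference of -0.29 on the log2 scale with a pooled SD of 0.02. BUB1B to CDC20 was 0.301 and 0.292 in NC and 0.254 and 0.244 in SKA3-KD, a difference of -0.25 with a pooled SD of 0.04. Although BUB1B rose, its level per unit of CDC20 was therefore lower in both SKA3-KD libraries. TTK to BUB1 was 0.436 and 0.417 in NC and 0.362 and 0.341 in SKA3-KD, a log2 difference of -0.28 with a pooled SD of 0.05. TRIP13 to MAD2L1 went the other way, from 5.53 and 6.10 to 7.18 and 6.96, a log2 difference of 0.28 with a pooled SD of 0.07.

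**Figure D4:**
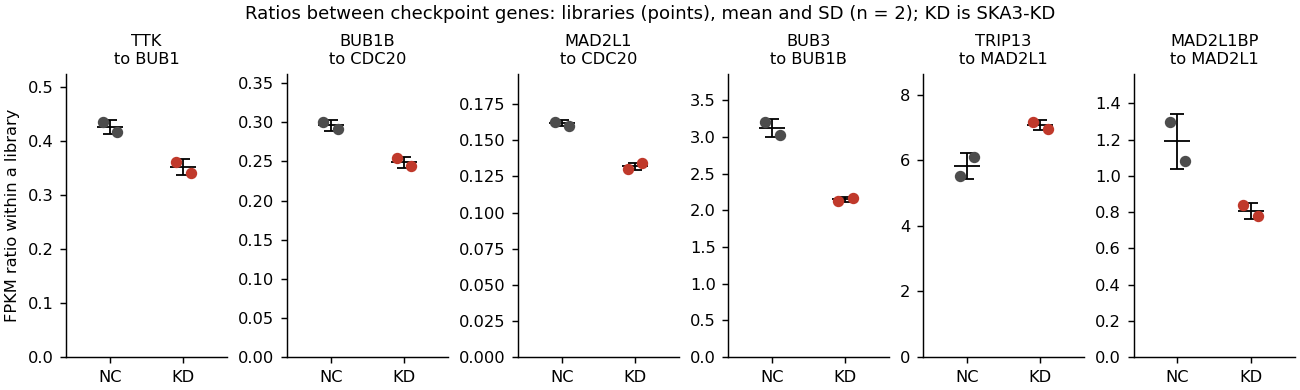
FPKM ratio of 2 checkpoint genes within each library (vertical axes, from 0, no unit) in the NC and SKA3-KD libraries; points are libraries and bars the mean and SD (n = 2). Every ratio but TRIP13 to MAD2L1 was lower in both SKA3-KD libraries.

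The genes around the checkpoint were read from lists in the same fit. Among 11 proteins that recruit the checkpoint to kinetochores, 2 rose and none fell, beside 6.16% of all genes higher and 6.11% lower, and the median log2 fold change was 0.23. SPDL1 (Spindly), the dynein adaptor that follows ZW10, read 30.3 and 28.3 FPKM in NC and 43.8 and 42.3 in SKA3-KD (log2 fold change 0.54, limma adjusted p = 0.0150). NUF2, a subunit of the NDC80 complex to which TTK binds, read 15.7 and 14.8 FPKM in NC and 22.0 and 21.7 in SKA3-KD (log2 fold change 0.49, limma adjusted p = 0.0180). KNL1, the scaffold for BUB1 and BUB3, read 10.1 and 9.55 FPKM in NC and 9.63 and 9.82 in SKA3-KD, and its groups overlapped.

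Of the chromosomal passenger complex and PLK1, which correct attachments and feed the checkpoint, 3 of 5 rose and none fell (median 0.48), beside the same shares of all genes. PLK1 read 23.8 and 25.8 FPKM in NC and 42.4 and 42.8 in SKA3-KD (log2 fold change 0.76, limma adjusted p = 0.0103). BIRC5 (survivin) had a log2 fold change of 0.71 (limma adjusted p = 0.0212) and CDCA8 (borealin) one of 0.48 (limma adjusted p = 0.0196). PLK1 and BIRC5 thus had larger log2 fold changes than any of the 10 checkpoint genes.

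The APC/C, which the checkpoint inhibits, was measured through 18 subunits, E2 enzymes and regulators. Of these, 2 rose and none fell, not far from the 6.16% higher and 6.11% lower of all genes, and their median log2 fold change was 0.03. UBE2S, the E2 enzyme that extends ubiquitin chains, had a log2 fold change of 0.59 (limma adjusted p = 0.0129), and CDC27, a core subunit, one of 0.41 (limma adjusted p = 0.0253). Of 8 substrates of the APC/C, with separase counted among them, 5 rose and none fell (median 0.36), against the same 6.16% and 6.11%. Cyclin B1 (CCNB1) read 88.9 and 79.3 FPKM in NC and 134 and 129 in SKA3-KD, a log2 fold change of 0.64 (limma adjusted p = 0.0150). ESPL1, the separase that cuts cohesin once the checkpoint is off, had a log2 fold change of 0.61 (limma adjusted p = 0.0118). CCNB2, CCNA2 and the chromokinesin KIF22 rose by 0.45, 0.39 and 0.30 on the log2 scale (limma adjusted p = 0.0364, 0.0352 and 0.0345).

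Of 9 phosphatase genes that silence the checkpoint, none passed the threshold in either direction (median 0.08), whereas limma voom called 3 higher and 1 lower, beside 13.9% higher and 12.2% lower of all genes in that fit. Among 3 paralogs of checkpoint genes, MAD2L2 (REV7), which serves translesion synthesis and end joining, rose from 21.7 and 21.5 to 27.8 and 29.2 FPKM (log2 fold change 0.39, limma adjusted p = 0.0249). RAE1, the BUB3 paralog, and FZR1 (CDH1), the CDC20 paralog, each had overlapping groups.

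Of 16 transcription factors and cofactors known to act on late cell cycle genes, 15 passed the filter. MYBL2 (log2 fold change 0.62, limma adjusted p = 0.0119) and FOXM1 (0.41, limma adjusted p = 0.0399) rose, and NFYC, an NF-Y subunit, fell by 0.39 on the log2 scale (limma adjusted p = 0.0417). These 2 higher and 1 lower of 15 stand beside 6.16% and 6.11% of all genes, and the median of the list was 0.03. Among 20 DNA replication genes, 2 rose (RRM2, 0.54, and MCM6, 0.51) and 2 fell (FEN1, -0.36, and GINS3, -0.55), with a median of -0.04, beside 6.16% higher and 6.11% lower of all genes. In limma voom the replication genes counted 2 higher and 5 lower, against 13.9% and 12.2% of all genes. The proliferation marker MKI67 read 37.9 and 37.1 FPKM in NC and 39.3 and 38.2 in SKA3-KD, and TOP2A read 92.5 and 83.2 in NC and 102 and 95.2 in SKA3-KD. Neither passed the threshold (log2 fold changes 0.05 and 0.17, limma adjusted p = 0.602 and 0.210). Both log2 fold changes were smaller than those of BUB1B, CDC20, TRIP13 and BUB1, the checkpoint genes past the threshold, and of MAD2L1 (0.23). That of TOP2A was larger than those of TTK (0.13), MAD1L1 (0.12) and the checkpoint genes with lower values in SKA3-KD. It was close to the median of the checkpoint genes, 0.18. Both markers were higher in SKA3-KD without overlap, as were 32.3% of all genes tested. The difference between the genes was not tested.

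**Figure D5:**
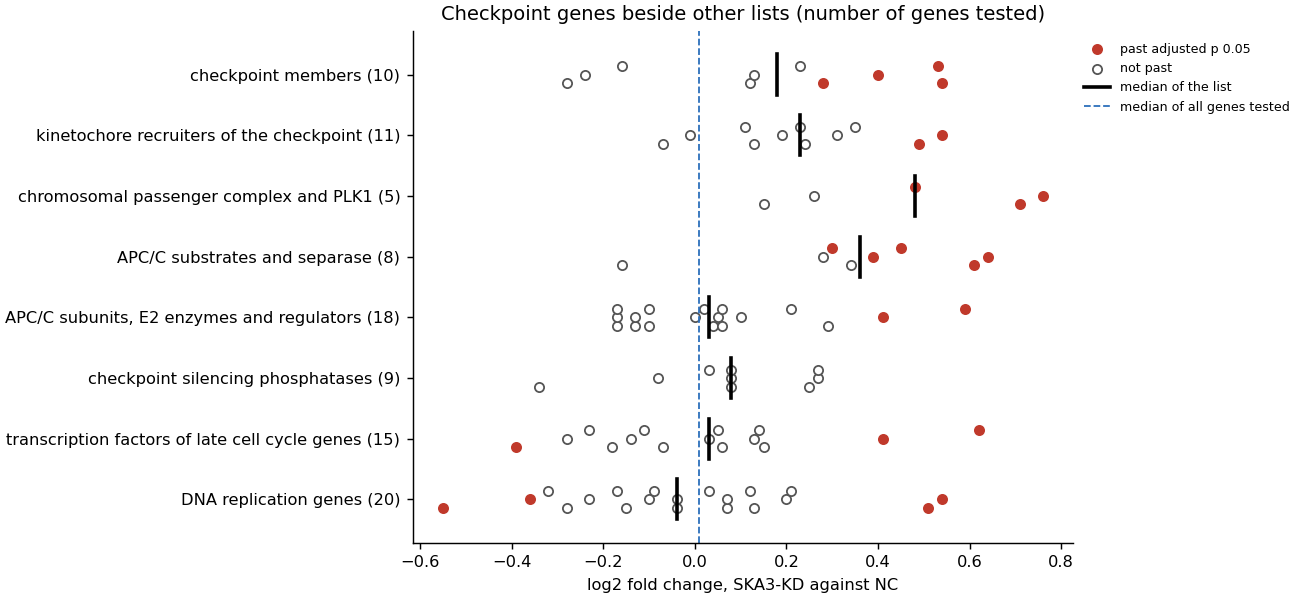
Log2 fold changes, SKA3-KD against NC, of the checkpoint genes and of 7 other lists; each point is a gene, filled where the limma adjusted p was under 0.05, black bars are list medians and the dashed line is the median of all genes tested. The checkpoint genes spread from -0.28 to 0.54 around a median of 0.18, and the DNA replication genes spread on both sides of 0.

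The profiles most like that of the 4 genes past the threshold were sought among 7207 genes outside the lists whose mean FPKM was 5 or more. Likeness was the Euclidean distance over the 4 libraries between log2(FPKM + 1) values, each centred on its own mean. The mean profile of CDC20, TRIP13, BUB1 and BUB1B was -0.21, -0.23, 0.22 and 0.22 over the NC and then the SKA3-KD libraries. The 3 nearest genes were FARP1 (distance 0.022), KPNA4 (0.023) and PDZD8 (0.028). FARP1 read 6.12 and 6.01 FPKM in NC and 8.77 and 8.57 in SKA3-KD. With 4 libraries in 2 groups, this likeness rests mostly on the difference between the groups.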

How the data were processed

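RNA was sequenced from 2 NC and 2 SKA3-KD libraries of TU-177 cells. The authors deposited FPKM values per gene for 28729 Ensembl identifiers. The submitters' processing notes name the build hg19, Bowtie2 2.2.8, HISAT2, StringTie 1.3.1 and Cuffdiff 2.1.1, without saying which step each one served. Every value column belonged to these libraries. Symbols were found for 27043 identifiers, and gene positions and exon lengths came from GENCODE 29 (GRCh38), a build other than the one named in the notes. Because low FPKM values are multiples of 1 read, reads were recovered from them with the exon lengths, as whole numbers within 0.01. Where this failed, the smallest whole numbers in the proportions between libraries were taken, as for BUB3 and MAD1L1. Whole numbers were obtained in these ways for 99.95% of the genes tested. The library sizes behind these reads were 11966130 and 9015056 for the NC libraries and 10177854 and 11793604 for the SKA3-KD libraries. The recovered reads summed over genes were more than this in every library. They were 12260636 and 9146207 in NC and 10490530 and 12140535 in SKA3-KD, and the cause was not tested.

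SKA3-KD was compared with NC by limma 3.58.1 in R 4.3.3 (lmFit, then eBayes with the trend option) on log2(FPKM + 1), over 12645 genes whose mean FPKM was 1 or more, with Benjamini-Hochberg adjustment and a threshold of 0.05. Fold changes on this scale understate the change of low genes. Replicates differed by more than sampling noise (chi-square per degree of freedom 3.59 in NC and 3.56 in SKA3-KD) and were kept as separate samples. Ratios between genes were compared by exact permutation. The alternatives used limma voom on the recovered reads, quantile or median-of-ratios scaling, a pseudocount of 0.1, a minimum mean FPKM of 5 or none, eBayes without the trend or with its robust option, a block for the replicate number, and the exclusion of each library. The limma and limma voom fits were tested on simulated reads with the same dispersion for every gene. Python 3.11.15 with numpy 2.4.6, pandas 2.3.3 and scipy 1.17.1 served the other steps.

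The checkpoint genes and the other lists were chosen with earlier results of these data known. Every checkpoint gene is named. From each other list the genes past the threshold are named, and the rest are given as counts apart from KNL1, RAE1, FZR1 and the proliferation and cell type markers, which were chosen after their values were seen. Promoters are from RefSeq (GRCh38.p14).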

Additional observations from a re-analysis of the deposited data

How the results depend on the processing

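All 10 checkpoint genes kept the sign of their log2 fold change under every alternative, each library left out included. Over the 9 alternatives with all 4 libraries, 81 of 90 values for single checkpoint genes stayed on the same side of the threshold, 7 were lost (BUB1B in 4 fits, BUB1 in 2, TRIP13 in 1) and 2 were gained (MAD2L1 and BUB3 in limma voom). Without a filter on low values, 1 checkpoint gene (CDC20) was higher past the threshold. Of the 26504 genes in that fit, 48 were higher and 81 lower. Without the trend, 2 checkpoint genes were higher, beside 312 higher and 381 lower of the 12645 genes tested. Limma voom called 1 checkpoint gene lower, beside 1754 higher and 1549 lower of all genes. With 1 library left out, no checkpoint gene passed (range 0 to 0), and over all genes 0 to 46 were higher and 0 to 135 lower, with 0 in both directions without NC 1 or without NC 2. These fits hold fewer samples, and the lone library of a group is assumed to vary like the others. The median log2 fold change of the checkpoint genes was then 0.15 to 0.23, and that of SKA3 -1.14 to -1.04. The 6 ratios kept their direction with FPKM + 1, with recovered reads and with each library left out, the last chosen after seeing the data. The cause of these losses and gains was not tested.

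The replicate number as a block gave 1002 higher and 965 lower genes, of which 1399 were called in both fits, and the same 4 checkpoint genes rose (limma adjusted p 0.0181 to 0.0417). The deviations of same-numbered libraries correlated at 0.1 over 2 pairs, so the numbers are not taken to pair the libraries. Depth limits MAD2L1BP most, with 184 to 303 reads a library.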
